A study of Rattus norvegicus with 6 samples.

Results

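Calcineurin, NFAT and Rcan genes form a calcium signalling route of heart muscle, and 10 of them were followed here in rat hearts. The 10 genes were taken by name from the 32883 named rows of the deposited table: the inhibitor genes Rcan1 and Rcan2, the calcineurin subunit genes Ppp3ca, Ppp3cb and Ppp3r1, the transcription factor genes Nfatc1 to Nfatc4, and the channel gene Trpc6. Each name matched 1 row, and all 10 passed the filter on low counts. The libraries came from hearts of male Sprague–Dawley rats with genotype WT, 8 weeks old and 250 to 300 g in weight. A control group of 3 rats was injected with saline, and a group of 3 rats was injected under the skin with ISO at 1.5 mg/kg/day, both for 7 days. ISO is read here as isoproterenol, a drug that activates beta-adrenergic receptors, and the series uses it to model myocardial hypertrophy and fibrosis. Heart tissue is a mixture of cell types, so fewer cells of a type and less RNA per cell cannot be told apart.

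Calcineurin is a phosphatase that calcium-bound calmodulin switches on. It consists of a catalytic A subunit, encoded by Ppp3ca or Ppp3cb in most tissues, and a regulatory B subunit, encoded by Ppp3r1. Active calcineurin removes phosphates from NFAT proteins, which then enter the nucleus and act with partners such as GATA4 and MEF2 on genes of hypertrophic growth. Rcan proteins bind calcineurin and can restrain it, and Rcan1 is itself a known NFAT target, so its RNA is often read as a sign of calcineurin activity. TRPC6 is a cation channel that lets calcium in when receptors coupled to Gq are active, and it has been placed both upstream and downstream of NFAT in heart muscle. Enzyme activity, protein levels and the location of NFAT were not measured by the files used here.

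The libraries held 14880391 to 17299589 counts, and levels are given as CPM, the library-size scaled read count, with 1 read worth 0.0583 to 0.0681 CPM. Where 3 values follow each other, they are replicates 1, 2 and 3 in that order, each a separate rat. Cardiomyocyte markers were plentiful in every library, and none of the 11 markers found stood at 0. Markers of some other cells moved with the groups, among them those of fibroblasts and macrophages. The ISO mean sums of endothelial and of smooth muscle and pericyte markers were 103% and 106% of saline, with none called by edgeR. The endothelial sum was 1077, 1228 and 1203 CPM in saline and 1493, 1099 and 1016 CPM in ISO, so ISO replicate 1 raised its mean. Single markers differed: 3 of 7 endothelial and 6 of 8 smooth muscle and pericyte fold changes were above 0. An unadjusted p under 0.05 was found for 1 and 3 of them, against 22.9% of all tested genes. Lymphocyte and red cell marker sums were 77.3% and 53.7% of saline. The summed level of 8 fibroblast markers was 3154 to 3951 CPM in saline and 7213 to 19352 CPM in ISO, highest in ISO replicate 3, and all 8 fold changes were above 0. The summed level of 8 macrophage markers was 269 to 315 CPM in saline and 467 to 774 CPM in ISO, again highest in ISO replicate 3. ISO replicate 1 carried RNA of atrial markers, at a summed 189 CPM against 2.22 to 4.18 CPM in the other 5 libraries.

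In ISO hearts both Rcan genes and the catalytic subunit gene Ppp3cb fell, while the catalytic gene Ppp3ca and the NFAT genes did not pass the test. Of the 10 genes, 3 were called lower and none higher at an edgeR adjusted p under 0.05, against 1.5% of all 13766 tested genes called lower and 1.47% called higher. At an unadjusted p under 0.05 the number was 6 of the 10, against 22.9% of tested genes. DESeq2 called 4 lower (4.74% of tested genes) and 2 higher (5.46%), and limma voom called 3 lower (1.27%) and none higher (1.12%). The series' own rule was an unadjusted p under 0.05 with a log2 change beyond 0.5 in size. Applied here to the edgeR values above, it took 3 as lower (4.5%) and 2 as higher (8.67%). The median log2 fold change of the 10 genes was −0.07, beside 0.02 over all tested genes, since the group held falls as well as higher values.

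Rcan1, which encodes regulator of calcineurin 1, changed most among the 3. The gene makes more than 1 protein form from separate first exons, of which the form started inside the gene is the one known to respond to NFAT, and counts per gene do not separate the forms. The start used for Rcan1 in the RefSeq promoter table lies inside the gene, 87.3% of the way along its span, where 4.11% of all 33469 entries lie past the middle. The 250 bases before the start are printed for the 3 genes that fell. They are also printed for Ppp3ca, a catalytic gene that did not pass the test. This is to show how the genes differ in GGAAA, the core letters that NFAT proteins bind. The sequences are from RefSeq, build GRCr8, and run 5′ to 3′ on the gene's strand. Capitals mark GGAAA, or TTTCC where the match is on the other strand.
Rcan1, minus strand, chr11:45118237-45118486: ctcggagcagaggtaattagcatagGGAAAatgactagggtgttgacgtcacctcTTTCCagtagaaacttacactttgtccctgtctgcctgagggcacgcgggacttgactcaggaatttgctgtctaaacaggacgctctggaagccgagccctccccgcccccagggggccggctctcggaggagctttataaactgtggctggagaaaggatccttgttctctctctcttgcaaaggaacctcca
Rcan2, minus strand, chr9:24672190-24672439: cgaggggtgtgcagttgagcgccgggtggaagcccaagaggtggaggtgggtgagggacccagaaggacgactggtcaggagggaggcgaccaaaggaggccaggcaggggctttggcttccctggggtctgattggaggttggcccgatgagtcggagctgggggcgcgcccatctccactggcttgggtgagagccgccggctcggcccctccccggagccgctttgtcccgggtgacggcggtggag
Ppp3cb, plus strand, chr15:3809012-3809261: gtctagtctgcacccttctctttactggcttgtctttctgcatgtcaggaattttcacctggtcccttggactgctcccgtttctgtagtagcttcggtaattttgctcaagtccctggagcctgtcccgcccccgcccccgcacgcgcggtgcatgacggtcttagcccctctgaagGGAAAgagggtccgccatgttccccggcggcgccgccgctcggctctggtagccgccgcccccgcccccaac
Ppp3ca, plus strand, chr2:227839357-227839606: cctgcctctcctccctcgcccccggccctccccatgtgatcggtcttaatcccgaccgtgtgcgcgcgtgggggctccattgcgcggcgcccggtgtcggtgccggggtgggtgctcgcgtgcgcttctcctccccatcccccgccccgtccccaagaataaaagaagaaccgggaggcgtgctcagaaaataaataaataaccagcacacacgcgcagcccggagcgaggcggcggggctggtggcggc

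Rcan1 held 2 matches to GGAAA, beginning 225 and 195 bases before the start and on opposite strands. At least 2 matches occurred in 22.9% of the 33469 promoters of the same length, and at least 1 in 56.9%. Ppp3cb held 1 match, 72 bases before the start, and Ppp3r1 also held 1, at 250 bases, whereas Rcan2, Ppp3ca, Nfatc2 and Trpc6 held none in this window. Rcan1 also had the letters TATAAA on the gene's strand, 58 bases before the start, and 8.06% of promoters hold them. GC content was 54% in the Rcan1 window and 62.8% to 72% in the windows of the other 6 genes matched. The table matched 7 of the 10 genes, and Nfatc1, Nfatc3 and Nfatc4 were not matched. A match describes letters only and is not evidence of binding.

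Rcan1 (ENSRNOG00000001979) measured 284, 299 and 275 CPM with saline and 83.3, 127 and 128 CPM with ISO. Every ISO library lay far below every saline library, and ISO replicate 1 was the lowest. The change was −1.34 on the log2 scale (SE 0.17, 95% interval −1.73 to −0.94, edgeR adjusted p = 0.0142), so the ISO mean was 39.6% of the saline mean. By size it ranked 23 among the 206 genes called lower. Among the 78 of those with at least 100 CPM in saline it ranked 3, so Rcan1 was one of the steepest falls among well expressed genes called lower. Genes that missed the call were not ranked.

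The ISO mean of Rcan1, at 39.6% of saline, can be set beside the cardiomyocyte markers. Their summed level was 64896 to 76759 CPM in saline and 41494 to 59529 CPM in ISO, an ISO mean of 70.5% of saline, with Nppa called higher, Actc1 called lower and 9 not called. The sum leans on its most abundant markers, such as Myh6 at 19615 CPM in saline. Single markers differed: 3 of the 11 fold changes were above 0, among them Tnnt2 at 0.07, and the median was −0.45. Nppa, Actc1, Myh6 and Tnnt2 were named after their values were seen. Whether fewer or altered muscle cells had a part in the Rcan1 fall was not tested. Without ISO replicate 1, which held atrial RNA and the lowest Rcan1 level, the change was −1.17 and was still called (edgeR adjusted p = 0.0369). The call was lost without saline replicate 1, 2 or 3 (edgeR adjusted p = 0.0639, 0.054 and 0.0768), with changes of −1.35, −1.31 and −1.37.

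Rcan2 (ENSRNOG00000010350) encodes a second calcineurin regulator that is abundant in heart and brain. It measured 548, 597 and 553 CPM with saline and 350, 389 and 325 CPM with ISO. The groups did not overlap, and 14.6% of all tested genes were likewise lower in ISO with no overlap. The change was −0.67 (SE 0.12, 95% interval −0.95 to −0.40, edgeR adjusted p = 0.0305). The ISO mean was 62.7% of saline, beside 70.5% for the summed cardiomyocyte markers, which did not all fall. Whether muscle cells had a part in the Rcan2 result was not tested. This call was lost without saline replicate 1, 2 or 3 or without ISO replicate 1 or 3 (edgeR adjusted p 0.0531 to 0.131), while the change stayed between −0.75 and −0.61 with any 1 library left out.

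**Figure D1:**
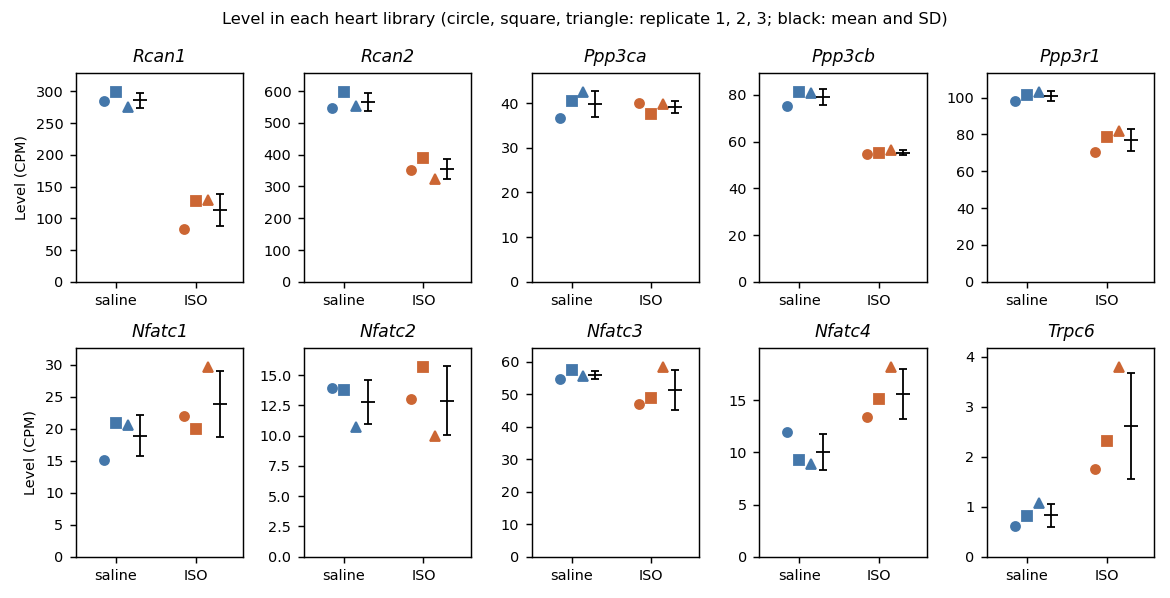
Level of each of the 10 genes in CPM (linear axis from 0) in the 3 saline and 3 ISO heart libraries, with a symbol for each replicate number and the mean and SD in black. Rcan1 runs from 275 to 299 CPM in saline and from 83.3 to 128 CPM in ISO, and Rcan2, Ppp3cb and Ppp3r1 also separate, while Ppp3ca overlaps.

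The balance between the 2 Rcan genes also differed between the groups, without overlap. The ratio of Rcan1 to Rcan2 reads within a library does not depend on scaling, and it was 0.519, 0.500 and 0.497 with saline and 0.238, 0.327 and 0.396 with ISO. The saline ratios lay close together and all ISO ratios lay below them. The difference in the mean log2 ratio was −0.69 (exact two-sided permutation test, p = 0.1, 0.1 after adjustment over 4 ratios). That is the smallest p that 3 against 3 libraries can give. Both genes were themselves called lower, and how often ratios of other gene pairs lie apart in this way was not measured. Rcan3 (ENSRNOG00000018576), the remaining gene of the family, was low at 3.54 to 4.84 CPM in saline and 4.96 to 6.58 CPM in ISO. Its change of 0.39 (SE 0.23, edgeR adjusted p = 0.343) did not pass the test. Rcan3 is shown for completeness of the family and was chosen after its values were seen.

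Of the calcineurin subunits, only Ppp3cb was called. Ppp3cb (ENSRNOG00000054782), the beta form of the catalytic subunit, measured 75.0, 81.1 and 80.7 CPM with saline and 54.5, 54.9 and 56.3 CPM with ISO. The ISO libraries lay within 2 CPM of each other and well below the saline ones. The change was −0.51 (SE 0.09, 95% interval −0.73 to −0.30, edgeR adjusted p = 0.0316). The ISO mean was 70.0% of saline, beside 70.5% for the cardiomyocyte marker sum, whose single markers did not all fall. Whether muscle cells had a part in the Ppp3cb change was not tested. The call was lost without scaling (−0.40, edgeR adjusted p = 0.0631), and without any 1 library other than ISO replicate 2 (edgeR adjusted p 0.0513 to 0.149), with the change then between −0.55 and −0.50.

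Ppp3ca (ENSRNOG00000009882), the alpha form, measured 36.6, 40.4 and 42.4 CPM with saline and 40.0, 37.6 and 39.9 CPM with ISO. The groups overlapped fully, and the change was −0.02 (SE 0.10, edgeR adjusted p = 0.921), with a 95% interval of −0.26 to 0.21 and a sign that turned without scaling. The upper bound of the Ppp3cb interval, at −0.30, lay below this interval. The ratio of Ppp3ca to Ppp3cb reads was 0.488, 0.498 and 0.526 with saline and 0.734, 0.685 and 0.709 with ISO. All ISO ratios were above all saline ratios, a shift of 0.49 in the mean log2 ratio (exact two-sided permutation test, p = 0.1, adjusted 0.1). The spread within a group was far smaller, at SDs of 0.0566 and 0.0501 on the same scale.

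Ppp3r1 (ENSRNOG00000043210), which encodes the regulatory B subunit, measured 98.0, 102 and 103 CPM with saline and 70.3, 78.5 and 81.7 CPM with ISO. The groups did not overlap, yet the change of −0.39 (SE 0.10, 95% interval −0.62 to −0.16) had an edgeR adjusted p of 0.0728 and was not called. DESeq2 called it lower (adjusted p = 0.0144). Ppp3cc (ENSRNOG00000009745), a further catalytic gene, gave −0.06 (SE 0.13, edgeR adjusted p = 0.834), with levels of 38.5 to 49.6 CPM in saline and 37.0 to 43.8 CPM in ISO. Its sign turned without scaling. Ppp3r2, the B subunit gene of testis, was chosen after its values were seen and had no reads in any library, which allows a level of up to 0.175 to 0.204 CPM, the worth of 3 reads.

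Relative to Ppp3ca and Ppp3cb together, Rcan1 was lower in every ISO library than in any saline library. The third catalytic gene, Ppp3cc, was not part of this ratio. Rcan1 reads divided by the sum of Ppp3ca and Ppp3cb reads gave 2.55, 2.46 and 2.23 with saline and 0.881, 1.38 and 1.34 with ISO. These are ratios of reads, not corrected for transcript length, so only the difference between groups can be read. It was −1.04 in the mean log2 ratio (exact two-sided permutation test, p = 0.1, adjusted 0.1).

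**Figure D2:**
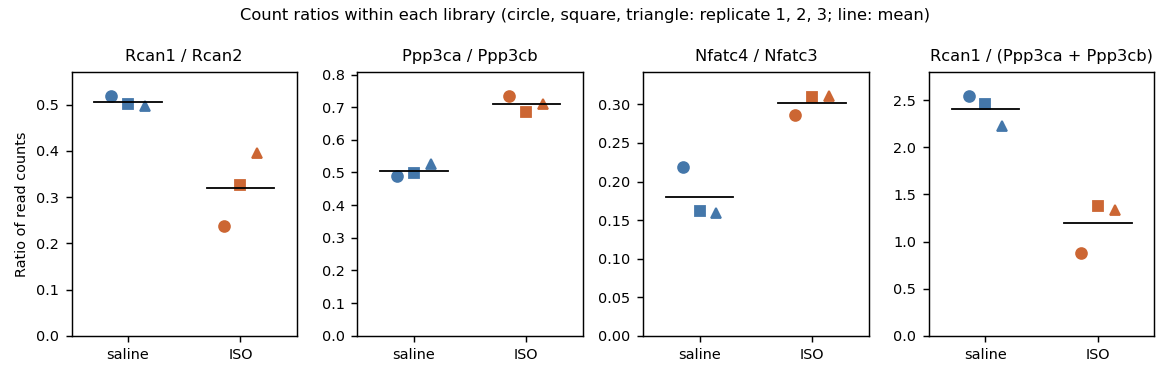
Ratios of read counts of member genes within each library (linear axes from 0) for 3 saline and 3 ISO hearts, with a line at each group's mean. No ratio overlaps between groups, and Ppp3ca over Ppp3cb moves from 0.488 to 0.526 in saline up to 0.685 to 0.734 in ISO. Every ratio but Nfatc4 over Nfatc3 holds a gene called lower, and the share of other gene pairs without overlap was not measured.

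The NFAT genes, which encode the transcription factors that calcineurin activates, had no called member among the 4. Nfatc4 (ENSRNOG00000020482), a form linked to hypertrophic growth of heart muscle, measured 12.0, 9.25 and 8.84 CPM with saline and 13.4, 15.1 and 18.1 CPM with ISO. Every ISO library was above every saline library, and 14.1% of all tested genes were likewise higher in ISO with no overlap. The change of 0.63 (SE 0.18, 95% interval 0.21 to 1.06) had an edgeR adjusted p of 0.0945 and was not called, whereas DESeq2 called it higher (adjusted p = 0.0432). Its highest level was in ISO replicate 3, the library with the most fibroblast and macrophage marker RNA, and the part of those cells in the value was not tested. Without ISO replicate 3 the change was 0.51.

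Nfatc3 (ENSRNOG00000054264), another form placed in the growth response of heart muscle, measured 54.7, 57.3 and 55.6 CPM with saline and 46.9, 48.7 and 58.3 CPM with ISO. ISO replicate 3 lay above all saline libraries while the other two lay below them. The change was −0.12 (SE 0.11, 95% interval −0.38 to 0.14, edgeR adjusted p = 0.558). The ratio of Nfatc4 to Nfatc3 reads was 0.219, 0.161 and 0.159 with saline and 0.286, 0.310 and 0.311 with ISO. It was higher in all ISO libraries, by 0.76 in the mean log2 ratio (exact two-sided permutation test, p = 0.1, adjusted 0.1).

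Nfatc1 (ENSRNOG00000017146), best known from heart valve development and immune cells, measured 15.2, 20.9 and 20.6 CPM with saline and 22.1, 19.9 and 29.6 CPM with ISO. ISO replicate 2 fell among the saline libraries, and ISO replicate 3 was the highest. The change was 0.34 (SE 0.19, 95% interval −0.10 to 0.77, edgeR adjusted p = 0.33), and it was 0.15 without ISO replicate 3. Nfatc2 (ENSRNOG00000012175), a form known from T cells, measured 13.9, 13.8 and 10.7 CPM with saline and 13.0, 15.7 and 9.98 CPM with ISO. The groups overlapped, and the change was 0.01 (SE 0.20, 95% interval −0.45 to 0.47, edgeR adjusted p = 0.98). Lymphocyte markers were sparse, at a summed 6.25 to 6.88 CPM in saline and 3.06 to 6.33 CPM in ISO. Nfat5 (ENSRNOG00000011879), a relative that responds to salt stress and does not depend on calcineurin, gave −0.19 (SE 0.13, edgeR adjusted p = 0.424).

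Trpc6 (ENSRNOG00000006324) was the rarest of the 10 genes by reads, with 9, 13 and 17 reads with saline and 28, 37 and 65 reads with ISO. These counts correspond to 0.613, 0.813 and 1.07 CPM in saline and 1.75, 2.31 and 3.79 CPM in ISO. All ISO libraries lay above all saline libraries, and ISO replicate 3 was the highest. The change of 1.64 (SE 0.42, 95% interval 0.69 to 2.60) was the largest of the 10 in size, but it had an edgeR adjusted p of 0.0709 and was not called. DESeq2 called it higher (adjusted p = 0.0205). Without ISO replicate 3, in which fibroblast and macrophage marker RNA was highest, the change was 1.28, and the part of those cells was not tested.

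For comparison, Trpc1 (ENSRNOG00000054902), another TRPC channel gene, gave −0.31 (SE 0.21, edgeR adjusted p = 0.406).

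**Figure D3:**
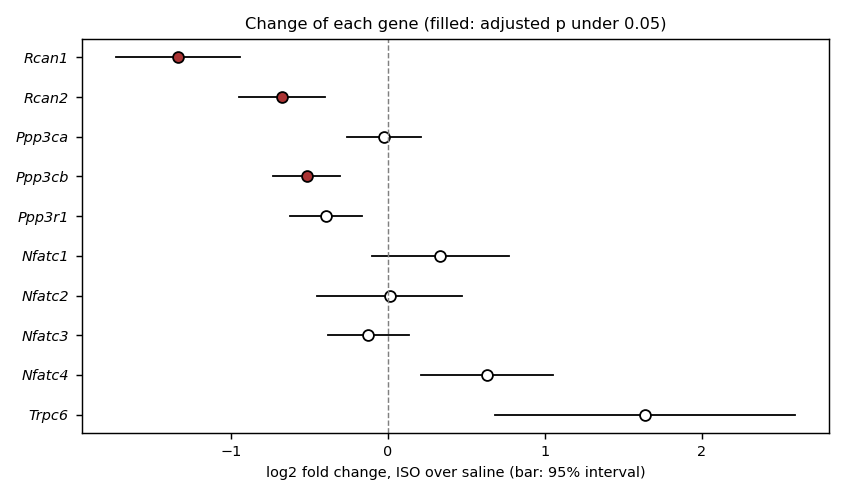
Log2 fold change of ISO over saline for the 10 genes with its 95% interval from edgeR, filled where the adjusted p was under 0.05. Rcan1 at −1.34, Rcan2 at −0.67 and Ppp3cb at −0.51 are filled, and Trpc6 at 1.64 has the widest interval.

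The number of the 10 genes called depended on which library was left out. Leaving out any library also reduces the number of rats compared, and its part in the lost calls was not tested. With saline replicate 1, 2 or 3 left out, none of the 10 was called, and lower calls over all genes also shrank, from 1.5% to 0.0854%, 0.114% and 0.0355% of tested genes. Without ISO replicate 1 or 3 Rcan1 alone of the 10 was called, when 0.1% and 0.889% of tested genes were called lower. Without ISO replicate 2 Rcan1, Rcan2 and Ppp3cb were all called, when 2.46% were called lower. Rcan1 ranged from −1.44 to −1.17 in these 6 fits and Trpc6 from 1.28 to 1.86.

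**Figure D4:**
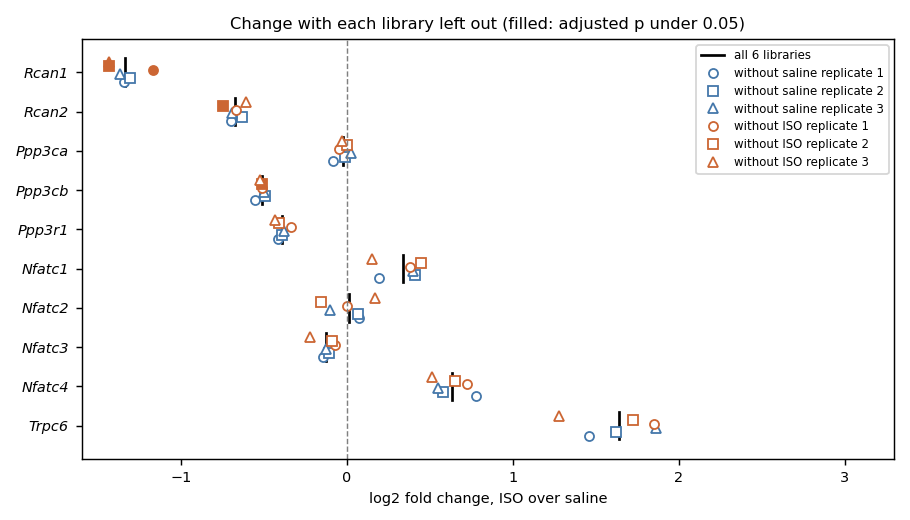
Log2 fold change of each gene with all 6 libraries (black bar) and with each library left out in turn (symbols, coloured by the group that lost a library), filled where the edgeR adjusted p was under 0.05. Rcan1 stays between −1.44 and −1.17, while Ppp3ca and Nfatc2 fall on both sides of 0.

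The wider pathway held further calls. Of 79 other genes in 10 lists of the pathway, 69 were tested, with a median log2 fold change of −0.09. Of these, 1 was called higher (1.47% of all tested genes were) and 3 lower (1.5%). An unadjusted p under 0.05 was found for 24 of the 69, against 22.9% of all tested genes. Fhl2 (ENSRNOG00000016866), a LIM-domain protein that binds calcineurin in heart muscle, measured 1842, 1263 and 1474 CPM with saline and 670, 795 and 738 CPM with ISO. Its change was −1.06 (SE 0.17, edgeR adjusted p = 0.0207). Dyrk2 (ENSRNOG00000007821), a kinase that can phosphorylate NFAT and so oppose calcineurin, measured 50.4, 54.0 and 58.2 CPM with saline and 28.6, 29.1 and 35.4 CPM with ISO. Its change was −0.80 (SE 0.12, edgeR adjusted p = 0.019). Both genes were lower in all 3 ISO libraries, and both lost their calls without any 1 saline library or without ISO replicate 1.

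Myoz1 (ENSRNOG00000040122), the calcineurin-binding Z-disc protein calsarcin-2 of fast skeletal muscle, was the gene called higher. It measured 0.817, 0.688 and 1.33 CPM with saline and 3.07, 3.87 and 2.51 CPM with ISO, a change of 1.73 (SE 0.37, edgeR adjusted p = 0.0498). That p lay just under the threshold, and the call was lost with any 1 library left out and with limma voom (adjusted p = 0.0562). Myoz2, the form of heart muscle, was named after its values were seen and measured 826, 940 and 804 CPM with saline and 648, 628 and 537 CPM with ISO. Its change of −0.50 (SE 0.13) did not pass the test, with an edgeR adjusted p of 0.0758.

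Among transcription factors that act with NFAT, Mef2a (ENSRNOG00000047756) was lower in each ISO library, at 110, 113 and 117 CPM with saline and 80.4, 71.4 and 77.8 CPM with ISO. The change was −0.57 (SE 0.10, edgeR adjusted p = 0.0276). Of the 8 tested genes of that list only Mef2a was called, where 1.5% of all tested genes were called lower and 1.47% higher. The call was lost without scaling (edgeR adjusted p = 0.0633), without any 1 saline library and without ISO replicate 1. Upstream of calcineurin, Plcb4 (ENSRNOG00000033119), a phospholipase that Gq activates, gave −0.22 (SE 0.10, edgeR adjusted p = 0.25). None of the 14 store-operated entry, Gq and IP3 genes was called, which says little beside those shares of all tested genes. In the parallel kinase branch Camk2d (ENSRNOG00000011589), the main calmodulin-dependent kinase of heart muscle, gave −0.51 (SE 0.14, edgeR adjusted p = 0.0775), and DESeq2 called it lower (adjusted p = 0.0115), as it did 4.74% of tested genes. None of the 8 tested genes of that list was called by edgeR, and 3 had an unadjusted p under 0.05, against 22.9% of all tested genes.

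Genes reported to respond to NFAT gave values on both sides of 0, with none of 5 tested called by edgeR. At an unadjusted p under 0.05 there were 3 of the 5, against 22.9% of all tested genes, and DESeq2 called 2 higher, against 5.46%. Myh7 (ENSRNOG00000016983), the slow myosin heavy chain, had ISO levels of 3704, 6794 and 3290 CPM against 2230, 2439 and 2192 CPM with saline. Its change of 1.01 (SE 0.27) had an edgeR adjusted p of 0.0791, and without ISO replicate 2 it was 0.61 and was called (edgeR adjusted p = 0.0404). Nppb, which encodes B-type natriuretic peptide, was chosen after its values were seen and measured 37.8, 97.1 and 67.9 CPM in ISO libraries against 99.5, 108 and 130 CPM with saline. Its groups did not overlap, and its change of −0.74 (SE 0.29) did not pass the test (edgeR adjusted p = 0.186).

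**Figure D5:**
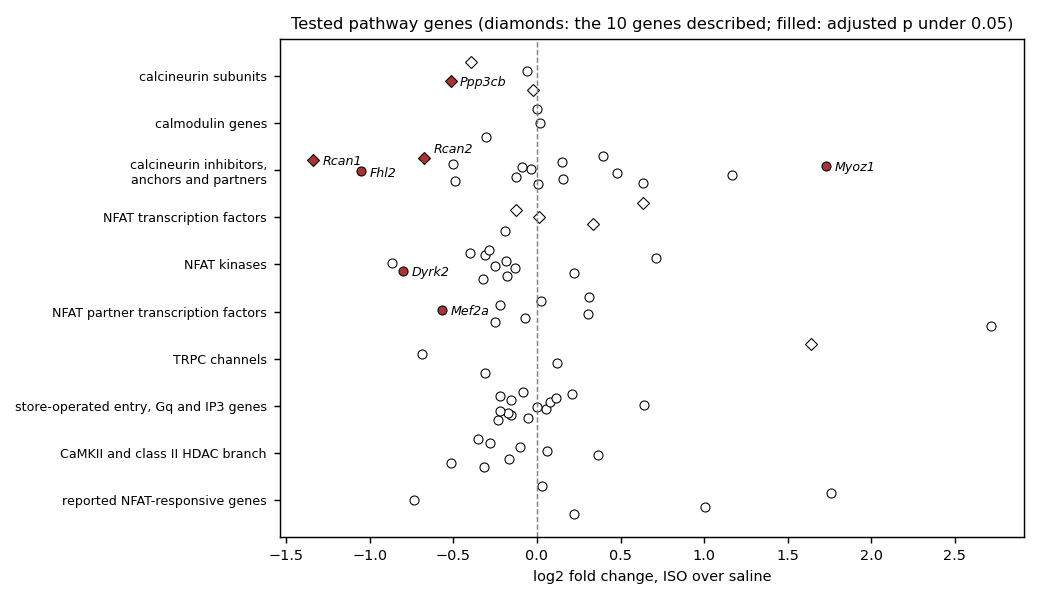
Log2 fold change of ISO over saline for each tested gene of 10 pathway lists, 1 symbol per gene, with diamonds for the 10 genes described and filled symbols for an edgeR adjusted p under 0.05. The filled symbols are Rcan1, Rcan2, Ppp3cb, Fhl2, Dyrk2 and Mef2a below 0 and Myoz1 above 0.

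Across the 6 libraries, the level of Rcan1 was most like that of Adam19, Slirp, Nolc1, Kpna1 and Shb among 11672 ranked genes whose mean reached 1 CPM. Likeness was Pearson's r of log2 CPM over the 6 libraries, at 0.995 for Adam19 and for Slirp, 0.994 for Nolc1, 0.992 for Kpna1 and 0.990 for Shb. All 5 were lower in each ISO library than in any saline library and lowest in ISO replicate 1. Most unlike were Nek8 at −0.991, Cadm1 at −0.989 and Ppcs at −0.989. Among the other 9 genes of the set, Ppp3r1 was most like Rcan1 at 0.990, then Ppp3cb at 0.957 and Rcan2 at 0.936. These values are descriptions over 6 points in 2 groups, and any gene that falls in ISO shares much of the pattern.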

How the data were processed

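RNA of 6 rat hearts was sequenced. Per the series description, the authors aligned 150 bp paired reads with HISAT2 and counted them with featureCounts, and the deposited values are whole-number counts per gene, not normalised. Tool versions, strand setting and annotation: not given in the sources used here. As build, the submitters' processing notes name mm10, whereas the rows carry rat Ensembl identifiers, so no count was placed on a genome. Rows without a gene name (1006 of 33889, 0.981% to 1.32% of a library's counts) were left out.

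All genes were fitted together with edgeR 4.0.16 in R 4.3.3 (quasi-likelihood test, TMM scaling, Benjamini-Hochberg adjustment over the 13766 genes that passed filterByExpr). The SE is the size of the log2 fold change over the root of its F statistic. CPM use the same scaling, and log2 CPM a prior count of 2. Alternatives were DESeq2 1.42.0, limma 3.58.1 with voom, other scalings and filters, a replicate block, and each library left out. The members and lists were chosen with earlier results of these data known. Named genes are the 10 members, up to 3 called genes of each pathway list or otherwise its most abundant other tested gene, and the genes most and least like Rcan1. Other genes are marked as chosen after their values were seen. Of the genes the rule gave, 1 is not reported here.

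In counts simulated for this comparison over 13844 genes, edgeR recovered 20% of the genes given a 1.5-fold change. It recovered 68% of those given 2-fold, 94% of those given 4-fold and 98% of those given 8-fold changes, and 5 of 145 calls were false. The simulated spread followed the trend shared by genes of like level, with no spread particular to a gene and no deviating library. These shares may therefore not hold for the real libraries. The series description gives 3 rats per group, so libraries of a group are different animals.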

Additional observations from a re-analysis of the deposited data

How the results depend on the processing

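Over the 10 genes and 14 alternatives each, 111 values kept their direction and their side of the threshold, 17 lost a call, 5 gained a call and 7 changed sign. Only the 3 called genes could lose a call. Of 14 alternatives each, the call was lost in 4 for Rcan1, 6 for Rcan2 and 7 for Ppp3cb. The series' rule used the main fit, so it could not change a direction. The sign changes were in Ppp3ca (0.0885 without scaling and −0.0838 to 0.0236 with each library left out) and Nfatc2 (−0.00477 with voom and −0.15 to 0.17 with each library left out), and in Ppp3cc outside the 10 (0.0521 without scaling and −0.12 to 0.0688 with each library left out). Genes called lower numbered 0 to 3 of the 10 with each library left out and 0 with the replicate block. Genes called higher numbered 2 with DESeq2 and 2 by the series' own rule. With the replicate block, Rcan1 was −1.36 (edgeR adjusted p = 0.0529). Same-numbered libraries correlated at 0.0945, −0.109 and 0.0192 in their deviations from the group means. With 3 libraries in a group, these values cannot show whether the libraries were paired. Not every library correlated best with its own number.

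Over all genes, 203 were called higher and 206 lower. Higher and lower calls were 752 and 653 with DESeq2, 15 and 13 with the replicate block, and 6 to 492 and 5 to 346 with each library left out. The series' rule, applied to the edgeR values of the main fit, gave 1193 and 619. Without the filter 322 were higher, and without scaling 280 were higher and 123 lower, when the median of all genes moved from 0.02 to 0.13. Of the other pathway genes, 3 were called higher and 6 lower with DESeq2, 0 higher with voom, 0 and 0 with the replicate block, 6 and 8 by the series' rule, and 0 to 2 and 0 to 4 with each library left out. These counts for the other pathway genes were chosen after seeing the data. The cause of these changes was not tested. Trpc6 rests on 9 to 65 reads a library, and intervals cover counting error and the spread between these rats only.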

Other observations

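Some genes of the pathway lists had large values that did not pass the test, and they were chosen after their values were seen. Chp2, which encodes a calcineurin B homologous protein, measured 2.45, 3.44 and 3.79 CPM with saline and 4.13, 5.18 and 12.5 CPM with ISO (log2 fold change 1.17, SE 0.43, edgeR adjusted p = 0.155). Ptgs2, the inducible cyclooxygenase gene, measured 1.57, 1.19 and 0.316 CPM with saline and 3.70, 1.75 and 4.96 CPM with ISO (1.76, SE 0.58, edgeR adjusted p = 0.128). Fos, an immediate early gene that partners NFAT, measured 2.11, 2.06 and 0.442 CPM with saline and 8.02, 0.686 and 21.6 CPM with ISO. The Fos groups overlapped, and the spread between ISO libraries was as wide as the difference between groups (2.71, SE 1.01, edgeR adjusted p = 0.162).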
